A study of Rattus norvegicus with 12 samples.

Results

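The genes described here make haemoglobin, supply its haem and mark red cells and their precursors, and they were followed in rat knee articular cartilage in rats operated on to give osteoarthritis (OA) or given a sham operation. They are 8 genes chosen by name out of the 14218 gene symbols on the array, namely Hbb, Alas2, Alas1, Alad, Fech, Slc4a1, Hemgn and Tfrc. Of the 31099 probe sets of the Affymetrix array, 10 carried 1 of these symbols and no other, with 2 each for Slc4a1 and Tfrc and 1 for each of the other genes. Values are log2 signals after GCRMA, a background correction and summary that weights probes by their base content, and a value near 2 is the floor of the scale. Of the 10 probe sets, 8 passed a filter for detectable signal (log2 above 4 in at least 3 of 12 arrays), and the probe set of Hemgn and the second one of Slc4a1 did not.

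The 12 arrays came from total RNA of joint cartilage of Rattus norvegicus, and they form the groups OA at 8 weeks, sham at 8 weeks, OA at 2 weeks and sham at 2 weeks after surgery, with 3 arrays each. All groups had an operation, and there was no unoperated group. The labels cite an earlier paper for the surgery and give no strain, age, sex or hybridization batch, nor whether the arrays of a group are separate animals or pools. The p-values therefore measure only the spread between these samples, and precision is limited by the small number of arrays. With no batch given, a difference between 8 and 2 weeks cannot be told apart from a difference in array processing between the times. The summed signal of 7 chondrocyte markers lay between 17.8 and 18.3 on the log2 scale in all 12 arrays. All sums of markers here add linear values before taking log2, so the strongest genes set most of each sum. Each array had 48.3% to 49.9% of its probe sets above 4. The array of OA at 8 weeks replicate 1 stood apart in control probe sets that read RNA integrity. Its 3′ minus 5′ difference was 0.885 for Gapdh and 5.38 for actin, against 1.24 to 1.47 and 7.72 to 8.66 in the other 11 arrays. Both values were smaller than in the other arrays, which is not a sign of poorer RNA. This array also had the highest summed level of 10 skeletal muscle markers, 18.5, and the reason it stood apart was not tested. Differences between groups that involve this array are given without it too where leaving it out ends or makes a call or moves the value by over 1.5 times.

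Haemoglobin joins alpha and beta globin chains, each holding a haem group. Haem synthesis starts in mitochondria, where aminolevulinate synthase condenses glycine with succinyl-CoA, and ends there when ferrochelatase inserts iron into protoporphyrin. Alas1 is the synthase found in most cells and Alas2, on the X chromosome, is the form of erythroid precursors, while Alad and Fech are shared by all haem-making cells. Articular cartilage has no blood vessels of its own, and red cell precursors mature in marrow, which in the knee lies below the cartilage and the bone plate under it.

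The promoters of the globin gene, of both synthases and of Hemgn are shown because the genes typical of red cells and their precursors and the widely expressed synthase differ in the values below. The sequences are the 250 bases before an annotated start, from RefSeq on build GRCr8, which held promoters for 7 of the 8 genes. The GATA motif searched was AGATAA, the same letters ending in G, or either of these beginning with T, on both strands. The CACCC motif was CCNCNCCC on both strands. The other motifs were CCAAT on both strands and, on the strand of the gene only, ATAAAA. Capitals mark every match, and matches may overlap. Hbb is chr1:167663722-167663971 (minus strand), Alas2 is chrX:22895200-22895449 (plus strand), Alas1 is chr8:115768643-115768892 (minus strand), and the Hemgn start shown is chr5:65485822-65486071 (minus strand).
Hbb: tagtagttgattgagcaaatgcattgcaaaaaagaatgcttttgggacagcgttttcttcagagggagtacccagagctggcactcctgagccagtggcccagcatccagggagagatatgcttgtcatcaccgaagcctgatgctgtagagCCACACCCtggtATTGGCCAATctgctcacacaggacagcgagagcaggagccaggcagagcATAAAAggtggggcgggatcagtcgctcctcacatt
Alas2: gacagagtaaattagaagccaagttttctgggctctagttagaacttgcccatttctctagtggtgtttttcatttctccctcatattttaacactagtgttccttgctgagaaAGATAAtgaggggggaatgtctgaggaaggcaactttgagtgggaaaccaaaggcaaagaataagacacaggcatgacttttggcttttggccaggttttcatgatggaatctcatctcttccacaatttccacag
Alas1: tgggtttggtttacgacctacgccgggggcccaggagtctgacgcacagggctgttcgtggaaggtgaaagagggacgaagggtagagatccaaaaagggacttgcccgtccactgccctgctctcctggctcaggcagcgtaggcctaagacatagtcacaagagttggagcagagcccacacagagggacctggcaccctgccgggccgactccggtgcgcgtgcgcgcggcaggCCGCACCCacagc
Hemgn: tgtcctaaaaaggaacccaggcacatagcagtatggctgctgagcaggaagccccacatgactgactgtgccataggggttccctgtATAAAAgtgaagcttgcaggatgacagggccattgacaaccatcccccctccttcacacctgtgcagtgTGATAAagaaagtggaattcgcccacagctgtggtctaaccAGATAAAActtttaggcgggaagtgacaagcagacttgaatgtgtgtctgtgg
The Hbb window held CCACACCC from -98 to -91 relative to the start, a CCAAT box on each strand between -86 and -77, and ATAAAA from -36 to -31, with 0 GATA motifs. Alas2 held 1 GATA motif, AGATAA from -136 to -131, and no other searched motif. Alas1 held 1 CACCC motif, CCGCACCC from -13 to -6. The window of the shared enzyme Fech, not shown, also held 1 GATA motif, from -135 to -130, and 2 CACCC motifs. Hemgn held 2 GATA motifs and 2 ATAAAA matches, of which 1 pair overlaps, and its other annotated start held only 1 CACCC motif. Of all 33469 RefSeq promoters of this length, 27% held the GATA motif, 42.8% the CACCC motif, 34% CCAAT and 11% ATAAAA, so each is common and a match only describes the letters present.

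**Figure D1:**
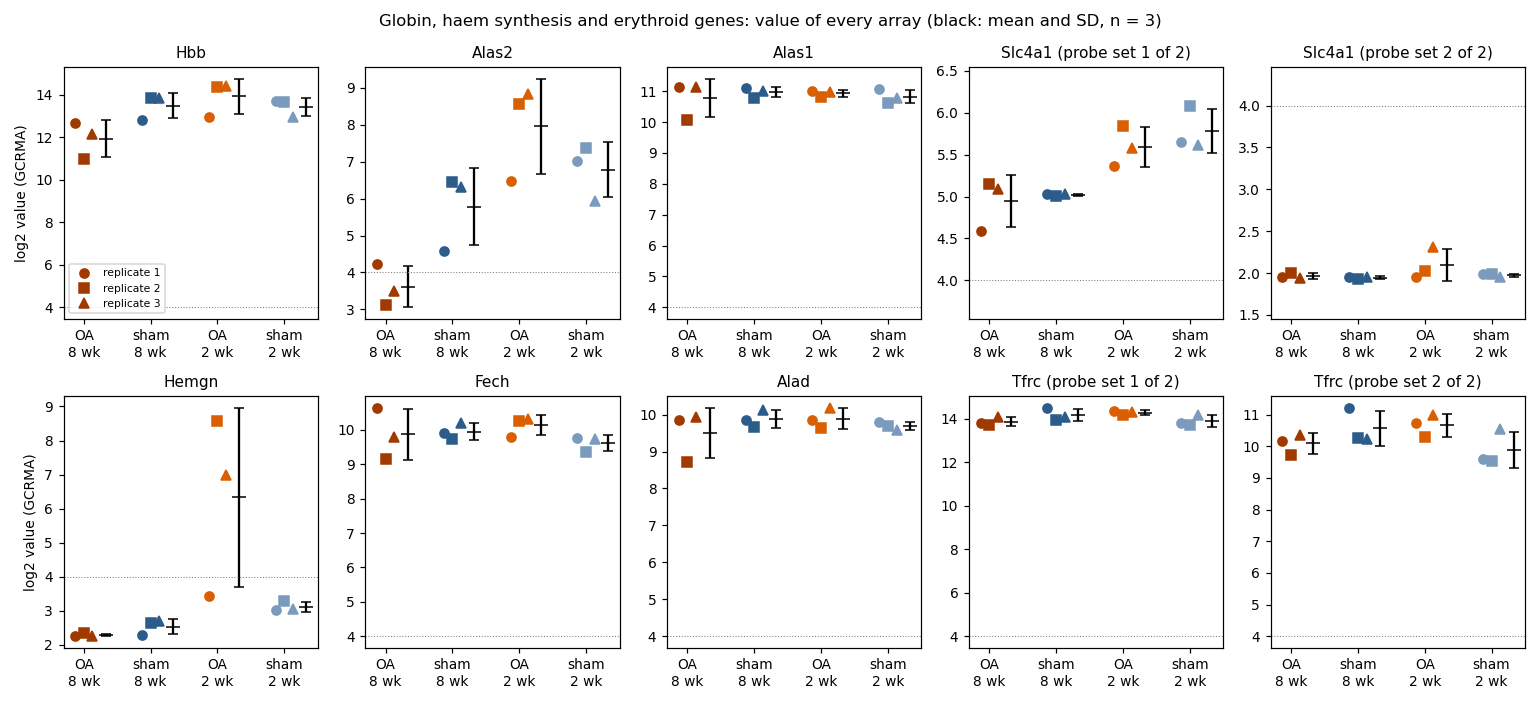
Log2 value (y axis) of each probe set in every array, with 1 panel per probe set. Circles, squares and triangles are replicates 1, 2 and 3 of OA and sham at 8 and at 2 weeks, black marks are the mean and SD of 3 arrays, and the dotted line is the filter at 4. Hbb and Alas2 are lower in OA at 8 weeks than in each other group, Hemgn is above 4 in only 2 arrays of OA at 2 weeks, and Alas1, Fech and Alad differ little between groups.

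Hbb, the adult beta globin chain, fell 3.96-fold at 8 weeks against 2 weeks within OA. At 8 weeks it lay below sham in all arrays without passing the test. In OA at 8 weeks its log2 values were 12.67, 10.998 and 12.16, against 12.80, 13.84 and 13.86 in sham at 8 weeks. The 3 OA arrays all lay below the 3 sham arrays, although the highest OA array and the lowest sham array, both replicate 1, were close. In OA at 2 weeks the values were 12.98, 14.39 and 14.43, against 13.72, 13.65 and 12.94 in sham at 2 weeks, and these groups overlapped. OA minus sham was -1.55 ± 0.52 (SE, limma, n = 3 each) at 8 weeks, with an unadjusted p of 0.0134 and an adjusted p of 0.129. Without OA at 8 weeks replicate 1 it was -1.92, with an adjusted p of 0.113. At 2 weeks OA minus sham was 0.50 ± 0.52, with an adjusted p of 0.99996.

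Within OA, Hbb averaged 11.94 at 8 weeks and 13.93 at 2 weeks, a difference of -1.98 ± 0.52 (limma adjusted p = 0.0140). Leaving out OA at 2 weeks replicate 2 or 3 lost this call, with differences of -1.76 and -1.74 and adjusted p-values of 0.0544 and 0.0511. Without OA at 8 weeks replicate 1 it was -2.35, with an adjusted p of 0.0105. Within sham, Hbb averaged 13.50 at 8 weeks and 13.43 at 2 weeks, and the difference of 0.06 ± 0.52 did not pass (adjusted p = 0.968). The test of the difference between the OA effects at 8 and at 2 weeks gave -2.05 ± 0.73 and did not pass either (unadjusted p = 0.0189, adjusted p = 0.371). In the order of group means, OA at 2 weeks came first, then sham at 8 weeks, sham at 2 weeks and OA at 8 weeks, and only the last step joined groups whose ranges did not overlap. Bulk RNA cannot tell fewer cells of a type from less RNA per cell.

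The probe set of Hbb is of a type that can cross-hybridize with related transcripts, so the other globin probe sets were set beside it. Hba-a3, an alpha globin gene with a probe set of its own, had values of 6.78, 6.12 and 7.18 in OA at 8 weeks, against 7.18, 8.49 and 8.41 in sham at 8 weeks. The groups did not overlap, though the highest OA and the lowest sham array were nearly equal. OA minus sham was -1.33 ± 0.40 at 8 weeks (limma adjusted p = 0.102), and 8 minus 2 weeks within OA was -1.73 ± 0.40 (adjusted p = 0.00760). A group of 5 further globin probe sets matched several symbols and stay unnamed. Their differences at 8 weeks ran from -1.55 to -1.33 for OA minus sham, with 0 of 5 called. All 5 fell at 8 weeks against 2 weeks within OA, by -2.27 to -1.63 (adjusted p from 0.00384 to 0.0456), and 0 of 5 did so within sham. The embryonic and fetal-type globin genes Hbe1, Hbe2, Hbg1 and Hbz stayed below 4 in every array, with a highest value of 3.40.

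Among the enzymes of haem synthesis, the erythroid first step varied widely and the enzymes shared by all cells did not pass any test. Alas2 had log2 values of 4.22, 3.12 and 3.50 in OA at 8 weeks, against 4.57, 6.46 and 6.31 in sham at 8 weeks. The groups did not overlap, and only 1 of the 3 OA arrays lay above the filter level. In OA at 2 weeks it had 6.47, 8.55 and 8.83, against 7.03, 7.38 and 5.95 in sham at 2 weeks, with replicates 2 and 3 of OA above every other array of the series. OA minus sham was -2.16 ± 0.70 at 8 weeks (SE, limma, unadjusted p = 0.0115, adjusted p = 0.120) and 1.17 ± 0.70 at 2 weeks (unadjusted p = 0.127, adjusted p = 0.99996). The 2 OA effects differed by -3.33 ± 0.99, which did not pass over all probe sets (unadjusted p = 0.00727, adjusted p = 0.273).

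Within OA, Alas2 averaged 3.62 at 8 weeks and 7.95 at 2 weeks, and it fell 20.2-fold (log2 difference -4.34 ± 0.70, limma adjusted p = 0.000884). Since the 8-week mean lies under 4, where the scale is compressed, the size of this fall is not exact. The call held in each of the 12 fits that left out 1 array, with adjusted p-values of at most 0.00520. Within sham, Alas2 averaged 5.78 at 8 weeks and 6.78 at 2 weeks, a difference of -1.005 ± 0.70 that did not pass (adjusted p = 0.445). With less weight on arrays that deviate from their group, both genes passed at 8 weeks between OA and sham, Alas2 with -2.62 (adjusted p = 0.0310) and Hbb with -1.80 (adjusted p = 0.0365). Leaving out sham at 8 weeks replicate 1 also took Alas2 past the threshold, with -2.77 and an adjusted p of 0.0497.

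Alas1, the housekeeping synthase, stood at 11.12, 10.06 and 11.15 in OA at 8 weeks, against 11.11, 10.78 and 11.002 in sham at 8 weeks. Its values were 10.99, 10.80 and 10.98 in OA at 2 weeks, against 11.06, 10.63 and 10.78 in sham at 2 weeks. The groups overlapped at both times, and only replicate 2 of OA at 8 weeks lay clearly below the rest. OA minus sham was -0.19 ± 0.26 at 8 weeks and 0.10 ± 0.26 at 2 weeks. Without OA at 8 weeks replicate 2 the 8-week difference was 0.17.

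Alad, the enzyme of the next step, which joins a pair of aminolevulinate molecules, had 9.84, 8.72 and 9.93 in OA at 8 weeks, against 9.85, 9.67 and 10.13 in sham at 8 weeks. At 2 weeks it had 9.86, 9.62 and 10.18 in OA, against 9.80, 9.70 and 9.57 in sham. Again the low value was replicate 2 of OA at 8 weeks, and the groups overlapped at both times. Its differences were -0.38 ± 0.29 at 8 weeks and 0.20 ± 0.29 at 2 weeks. Fech, ferrochelatase, had 10.65, 9.17 and 9.80 in OA at 8 weeks, against 9.92, 9.73 and 10.21 in sham at 8 weeks. At 2 weeks it had 9.80, 10.27 and 10.33 in OA, against 9.77, 9.36 and 9.74 in sham. The 3 OA arrays at 2 weeks lay above the 3 sham arrays, replicate 1 only narrowly, and the difference of 0.51 ± 0.32 did not pass (limma unadjusted p = 0.146). At 8 weeks the Fech groups overlapped, with a difference of -0.08 ± 0.32.

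Replicate 2 of OA at 8 weeks held the lowest of the 12 values for 6 of the 8 tested probe sets, those of Hbb, Alas2, Alas1, Fech, Alad and 1 of Tfrc. Over all probe sets tested, it held the lowest value for 11.1%. Without it, OA minus sham at 8 weeks was -1.08 for Hbb and -1.92 for Alas2, and the differences of Alas1, Fech and Alad were 0.17, 0.27 and 0.00. Hbb and Alas2 were thus lower with and without this array, and the shared enzymes were not below sham without it. Without replicate 1 of OA instead, the 8-week differences of OA minus sham were -0.36 for Alas1, -0.47 for Fech, -0.56 for Alad, -2.47 for Alas2 and 0.11 for Slc4a1, and 0 of these passed.

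**Figure D2:**
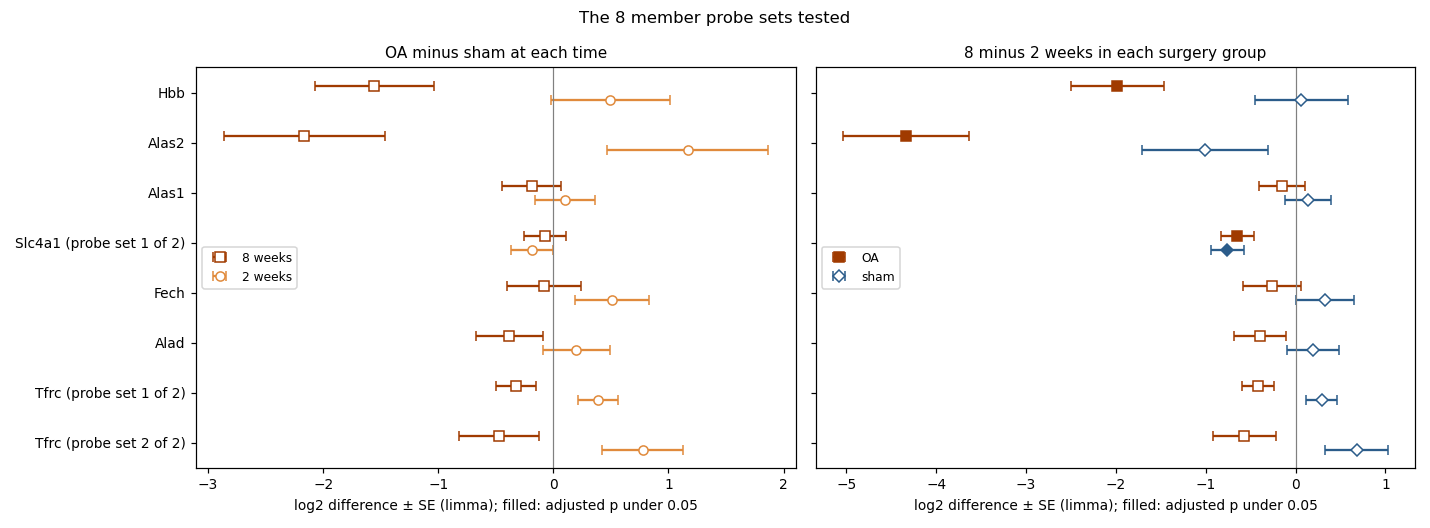
Log2 difference with its SE (x axis) for the 8 probe sets tested (y axis). The left panel gives OA minus sham at 8 weeks (squares) and at 2 weeks (circles), the right panel 8 minus 2 weeks in OA (squares) and sham (diamonds), and filled symbols passed at an adjusted p under 0.05. Only Hbb, Alas2 and Slc4a1 passed over time in OA, only Slc4a1 in sham, and 0 of 8 passed between OA and sham.

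Slc4a1, band 3, the anion exchanger of the red cell membrane, was lower at 8 weeks after both operations. Its first probe set had 4.59, 5.15 and 5.10 in OA at 8 weeks, against 5.03, 5.005 and 5.03 in sham at 8 weeks. It had 5.36, 5.84 and 5.58 in OA at 2 weeks, against 5.65, 6.08 and 5.61 in sham at 2 weeks. All 6 arrays at 8 weeks lay below all 6 arrays at 2 weeks, whatever the operation. Some probe sets under the filter in every array also split by time. Slc25a38, of the haem synthesis list below, had 2.16 to 2.20 at 2 weeks and 2.71 to 2.75 at 8 weeks, while Gata1 overlapped. Time and array processing cannot be told apart here. Slc4a1 fell at 8 weeks against 2 weeks by 0.65 ± 0.18 within OA (limma adjusted p = 0.0209) and by 0.76 ± 0.18 within sham (adjusted p = 0.0144). These calls were lost on leaving out single arrays, for OA without 2 weeks replicate 2 (-0.52, adjusted p = 0.0775) or 8 weeks replicate 1 (-0.47, adjusted p = 0.0658), and for sham without 2 weeks replicate 2 (-0.61, adjusted p = 0.0601). OA minus sham was -0.07 ± 0.18 at 8 weeks and -0.19 ± 0.18 at 2 weeks. The second probe set stayed between 1.93 and 2.31 in all 12 arrays, so the probe sets of Slc4a1 disagree on whether the gene is above the floor.

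Hemgn, hemogen, a nuclear protein of erythroid and other blood precursors, had a clear signal in 2 arrays. Its values were 3.43, 8.56 and 6.996 in OA at 2 weeks, against 3.02, 3.28 and 3.04 in sham at 2 weeks. It had 2.27, 2.33 and 2.26 in OA at 8 weeks, against 2.28, 2.62 and 2.69 in sham at 8 weeks. Replicates 2 and 3 of OA at 2 weeks were thus the only arrays above 4. The 2-week groups did not overlap, with replicate 1 of OA only just above sham. An exact two-sided permutation test of the difference of 3.22 at 2 weeks gave p = 0.1, the smallest p that 3 arrays against 3 allow. The 8-week difference between OA and sham was -0.24, with an exact permutation p of 0.2. Both 8-week groups were at or near the floor.

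The same arrays carried further red cell genes that the filter had left out, and these genes were picked after their values were seen. Car1, the carbonic anhydrase abundant in red cells, had 1.88, 5.86 and 5.92 in OA at 2 weeks and stayed between 1.86 and 1.93 in the other 9 arrays. Nfe2, a transcription factor that activates globin genes in erythroid cells and also acts in megakaryocytes, had 3.22, 6.37 and 5.11 in OA at 2 weeks, against 3.16, 3.19 and 3.09 in sham at 2 weeks. Ahsp, the chaperone that binds free alpha globin, had 3.12, 4.95 and 4.65 in OA at 2 weeks, against 3.19, 3.19 and 3.12 in sham at 2 weeks. In each case replicates 2 and 3 of OA at 2 weeks were high and replicate 1 was at the level of sham. Of 31042 probe sets without controls, 10 were above 4 in these 2 arrays and in no other, and 4 of the 10 belonged to Hemgn, Car1, Nfe2 and Ahsp. No test was made on this pattern, since it was chosen by it.

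**Figure D3:**
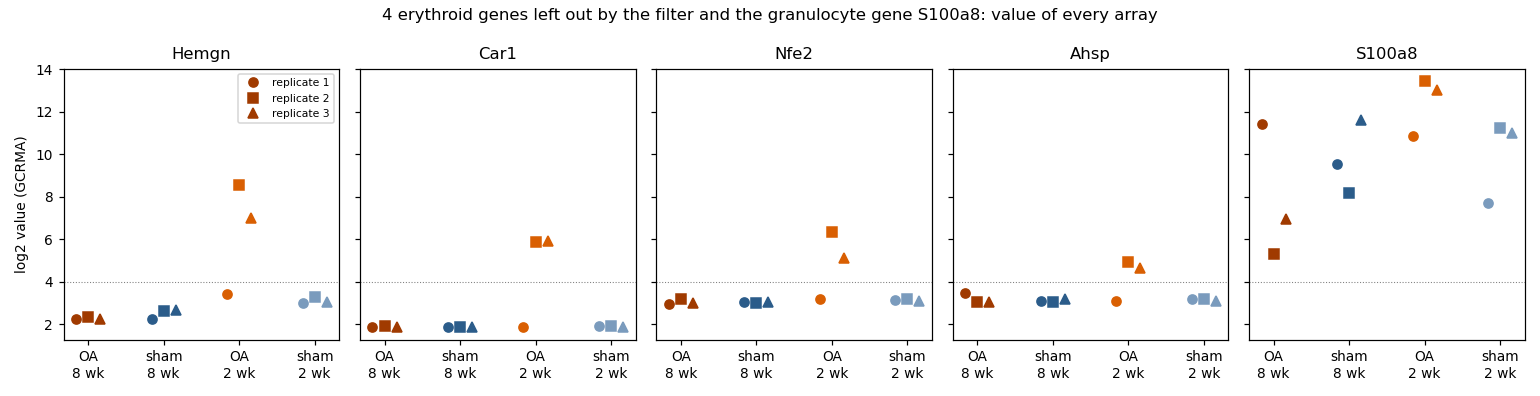
Log2 value (y axis) in every array of Hemgn, Car1, Nfe2 and Ahsp, which the filter left out, and of S100a8, a granulocyte gene, for OA and sham at 8 and at 2 weeks. The dotted line is the filter at 4. The 4 erythroid genes are above it only in replicates 2 and 3 of OA at 2 weeks, which also have the highest S100a8 values, 13.46 and 13.05.

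Other markers of red cell precursors were mixed in these arrays. Gata1 and Klf1, the master transcription factors of the lineage, and Epor, the erythropoietin receptor, did not exceed 2.82 in any array. Rhag, a red cell membrane protein, did not exceed 2.21. In replicate 2 of OA at 2 weeks alone, Rhd, a blood group protein of the same family, had 4.63, against 2.45 to 2.88 in the other 11 arrays. Tal1, a transcription factor of blood precursors, had its highest value there too, 3.62, under the filter level. The summed level of the 8 measured defining erythroid markers was 11.05 to 12.69 in OA at 8 weeks, 12.82 to 13.87 in sham at 8 weeks, 13.003 to 14.47 in OA at 2 weeks and 12.96 to 13.74 in sham at 2 weeks. Hbb is among these markers and sets nearly all of the sum, with 10.998 to 12.67 in OA at 8 weeks by itself. The sum therefore repeats Hbb and is no separate evidence.

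Tfrc, the transferrin receptor, which brings iron into cells, is used by all dividing cells and at high levels by red cell precursors. Its first probe set had 13.80, 13.72 and 14.11 in OA at 8 weeks, against 14.51, 13.97 and 14.11 in sham at 8 weeks. It had 14.39, 14.18 and 14.32 in OA at 2 weeks, against 13.80, 13.72 and 14.20 in sham at 2 weeks. The groups overlapped at both times. OA minus sham was -0.32 ± 0.18 at 8 weeks and 0.39 ± 0.18 at 2 weeks (unadjusted p = 0.0517), and the effects differed by -0.71 ± 0.25 (limma unadjusted p = 0.0168, adjusted p = 0.357). The second probe set had 10.18, 9.74 and 10.36 in OA at 8 weeks, against 11.22, 10.26 and 10.23 in sham at 8 weeks. It had 10.73, 10.28 and 10.98 in OA at 2 weeks, against 9.59, 9.53 and 10.55 in sham at 2 weeks. Both probe sets had OA below sham at 8 weeks and above it at 2 weeks, and the effects of the second differed by -1.25 ± 0.49 (unadjusted p = 0.0295, adjusted p = 0.408). Within OA, 8 minus 2 weeks was -0.42 ± 0.18 for the first probe set (adjusted p = 0.0916). It was -0.57 for the second, and both were below 0.

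Read over the 8 tested probe sets, 0 were called between OA and sham at 8 weeks, against 3.46% of all 15934 probe sets tested. An unadjusted limma p under 0.05 was reached by 2 of 8, and by 3423 of all 15934, so this count is near the background. All 8 differences were below 0, against 48.9% of all probe sets, and their median was -0.35, against 0.01 over all. In 2 of them, Hbb and Alas2, the OA arrays lay wholly below the sham arrays, against 12.8% of all probe sets. At 2 weeks 0 of 8 were called, against 0% of all (0 of 15934, with 269 at an unadjusted p under 0.05). The median at 2 weeks was 0.44, against -0.01 over all, and 7 of 8 were above 0, against 45.0% of all. For Fech alone the OA arrays lay wholly above the sham arrays, against 1.91% of all. The test of the difference between the effects called 0 of 8, against 0.138% of all. An unadjusted limma p under 0.05 was reached there by 4 of 8, and by 1760 of all 15934. The Tfrc probe sets read 1 gene, and the comparisons share arrays, so these counts are not independent of each other.

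Between 8 and 2 weeks far more of the array moved. Within OA 3 of 8 probe sets were called, all lower at 8 weeks, against 12.4% of all called lower and 34.1% called in either direction. All 8 were below 0, against 41.7% of all, and in 4 the 8-week arrays lay wholly below the 2-week arrays, against 17.5% of all. Their differences had a median of -0.49, against 0.09 over all. Within sham 1 of 8 was called, lower at 8 weeks, against 6.24% of all called lower and 18.7% in either direction, and in 1 the arrays lay wholly below, against 11.3% of all. The median within sham was 0.17, against 0.08 over all, with 6 of 8 above 0, against 63.8% of all. Of the calls over all probe sets, 63.7% within OA and 66.6% within sham were higher at 8 weeks, and an added quantile normalization changed these shares to 49.7% and 52.6%. Equalizing the array medians shifted the median over all within OA to -0.01.

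Beyond the members, the wider set of haem synthesis genes was read from a list of 16 enzymes and transporters, of which 14 were measured and 12 had passed the filter. At 8 weeks 0 of 12 were called between OA and sham, against 3.46% of all probe sets, and 9 were below 0, with a median of -0.13. Tmem14c, a mitochondrial protein needed for porphyrin import in mouse erythroid cells, had the smallest unadjusted p, with -0.50 ± 0.15 and an adjusted p of 0.0954. Without OA at 8 weeks replicate 1 it passed, with -0.66 ± 0.13 and an adjusted p of 0.0346. Within OA 5 of 12 were called at 8 weeks against 2 weeks, where 34.1% of all probe sets were, so the count is near the background. Alas2, the porphyrin transporter Abcb6 (-0.70 ± 0.21, adjusted p = 0.0247), Tmem14c (-0.49 ± 0.15, adjusted p = 0.0267) and the mitochondrial transporter Abcb10 (-0.35 ± 0.09, adjusted p = 0.0180) fell. Clpx, a mitochondrial chaperone that activates and turns over aminolevulinate synthase, rose by 0.38 ± 0.12 (limma adjusted p = 0.0383), and without OA at 8 weeks replicate 1 it no longer passed (0.23, adjusted p = 0.0812). Within sham 1 of 12 passed, Abcb10 with -0.41 ± 0.09 (adjusted p = 0.0106), so Abcb10 fell in both.

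**Figure D4:**
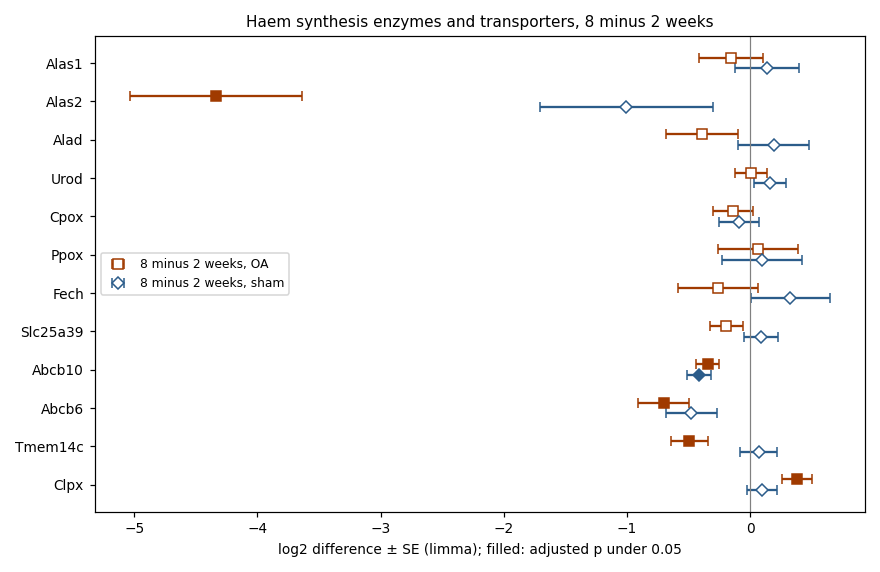
Log2 difference with its SE (x axis), 8 minus 2 weeks, for the 12 haem synthesis genes tested (y axis), in OA (squares) and sham (diamonds). Filled symbols passed at an adjusted p under 0.05. Alas2 at -4.34 in OA lies far from the other enzymes, which are within 1 unit of 0.

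Of 19 genes of iron uptake, storage and export, 16 were measured and 14 passed the filter, and 0 were called between OA and sham at either time. Heph, hephaestin, a ferroxidase of iron export, had -1.55 ± 0.38 at 8 weeks, just short of the threshold with an adjusted p of 0.0545. Cp, ceruloplasmin, the other ferroxidase, had 0.95 ± 0.24 (adjusted p = 0.0587). The 3 OA arrays lay wholly below sham for Heph and wholly above it for Cp. Slc25a37 also had its 3 OA arrays wholly above sham at 8 weeks, unlike Hbb and Alas2. Its OA minus sham was 0.72 ± 0.26 (limma unadjusted p = 0.0206, adjusted p = 0.155). At 2 weeks it was 0.66 ± 0.26 (limma unadjusted p = 0.0299, adjusted p = 0.99996). Of the 14, 5 were above 0 at 8 weeks and 9 below. Without OA at 8 weeks replicate 1 the differences of Heph and Cp were -1.52 and 0.90, with adjusted p-values of 0.119 and 0.131. Within OA 6 of 14 were called at 8 weeks against 2 weeks, 4 higher and 2 lower, against 34.1% of all, and 5 without that array. Within sham 3 of 14 were called, all higher, against 18.7% of all. Ireb2, an iron-sensing regulator of Tfrc and ferritin messages, was called in both, but its 2-week values of 3.75 to 4.11 lie at the filter level, and it was kept by the 8-week arrays, at 4.81 to 5.196. Hfe was also called higher in both. Its 2-week values of 3.78 to 3.84 lie under the filter level, and only the 8-week arrays, at 4.46 to 4.94, kept it. The sizes of the differences of Ireb2 and Hfe are therefore not given, though the counts above include both genes.

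Of 20 genes of the red cell membrane, 16 were measured, and 10 of these stayed below the filter while 6 passed. The cytoskeletal genes Ank1, Add2 and Epb42 did not exceed 3.36, 2.12 and 2.70 in any array. Of the 6 tested, 0 were called between OA and sham at either time. Within OA 3 rose and 1 fell at 8 weeks against 2 weeks, where 34.1% of all probe sets were called. Without OA at 8 weeks replicate 1 these counts became 2 and 0, with Slc4a1 and Epb41 no longer called. Cd47, a widely expressed surface protein, rose by 0.68 ± 0.10 (limma adjusted p = 0.000359). Epb41, which links spectrin to actin, had 0.53 ± 0.19 (adjusted p = 0.04997), and 0.46 without that array (adjusted p = 0.134). Tmod1, an actin-capping protein also of muscle, had 9.85, 5.98 and 5.998 in OA at 8 weeks, against 2.99, 3.67 and 2.99 in OA at 2 weeks. It lay under the filter in all 6 arrays at 2 weeks, so its rise has no exact size, and the highest value was that of the array that stood apart. The summed level of 10 skeletal muscle markers was 15.7 to 18.5 in OA at 8 weeks, with the highest in that array too, and 14.4 to 15.02 in OA at 2 weeks. The part of muscle in the values of Tmod1 was not tested.

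Of 12 erythroid transcription factors and the erythropoietin receptor, 11 were measured and 2 passed the filter. Both fell within OA at 8 weeks against 2 weeks, where 12.4% of all probe sets did. Lmo2, a bridging factor of blood and endothelial cells, differed by -2.73 ± 0.46 (adjusted p = 0.00118) and its widely expressed partner Ldb1 by -0.69 ± 0.17 (adjusted p = 0.0118). Of 11 red cell enzyme genes, 9 passed the filter, and within OA 1 rose and 2 fell, near the 34.1% of all probe sets. Car2, a carbonic anhydrase of red cells and osteoclasts, had 8.91 and 9.55 in replicates 2 and 3 of OA at 2 weeks and 5.69 in replicate 1. In OA at 8 weeks it had 4.91 to 5.67. Its difference of 8 minus 2 weeks, -2.67 ± 0.90, passed (limma adjusted p = 0.0422), but not without OA at 8 weeks replicate 1 (-2.44, adjusted p = 0.112). Without that array the enzymes that had been called were no longer called, and Ubac1 was called lower. Of 11 genes of haem export and breakdown, 8 passed the filter, and 1 rose and 1 fell within OA, against 34.1% of all probe sets called. The gene that fell was Flvcr2, a member of the haem exporter family (-1.60 ± 0.27, adjusted p = 0.00118), whose 8-week OA values of 3.89, 3.42 and 4.02 are near the filter level. Hp, haptoglobin, which binds free haemoglobin, rose (0.56 ± 0.19, adjusted p = 0.0457), but not without OA at 8 weeks replicate 1 (0.44, adjusted p = 0.144). None of these 3 lists held a call between OA and sham at either time, against 3.46% of all probe sets at 8 weeks.

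Across arrays, Hbb and Alas2 varied together within each time. Each relation here pools the OA and sham arrays of a time, and the permutations ignored operation and replicate number. Differences between OA and sham are thus part of r, as for Hbb and Alas2 at 8 weeks, whose groups did not overlap. The p-values do not measure how genes vary together within a group. Over the 6 arrays at 8 weeks Pearson's r was 0.949 (exact permutation p = 0.00278, adjusted over 8 relations 0.0185) and Spearman's rho was 0.943 (exact p = 0.0167, adjusted 0.0444). Over the 6 arrays at 2 weeks r was 0.974 (exact permutation p = 0.0111, adjusted 0.0222) and rho was again 0.943. Without the 2 arrays farthest from the median of Alas2, r was 0.921 at 8 weeks and 0.904 at 2 weeks. For Alas1 and Alas2 r was 0.293 at 8 weeks and 0.034 at 2 weeks (exact permutation p = 0.649 and 0.932). Without the 2 farthest arrays r was -0.994 at 8 weeks and 0.188 at 2 weeks, over 4 arrays each, so the 8-week value changes sign with the arrays used. Alas1 and Alad had r of 0.948 at 8 weeks (exact permutation p = 0.0292, adjusted 0.0467), but rho was 0.6, and without the 2 farthest arrays, replicate 2 of OA among them, r was -0.848. That relation rests on those arrays. The probe sets of Tfrc followed each other, with r of 0.943 at 8 weeks and 0.968 at 2 weeks (exact permutation p = 0.00556 and 0.00694, adjusted 0.0185 for both). For them rho was 0.829 at 8 weeks, which did not pass (exact permutation p = 0.0583, adjusted 0.117), and 0.943 at 2 weeks (adjusted 0.0444). Without the 2 farthest arrays r was 0.729 at 8 weeks and 0.765 at 2 weeks.

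**Figure D5:**
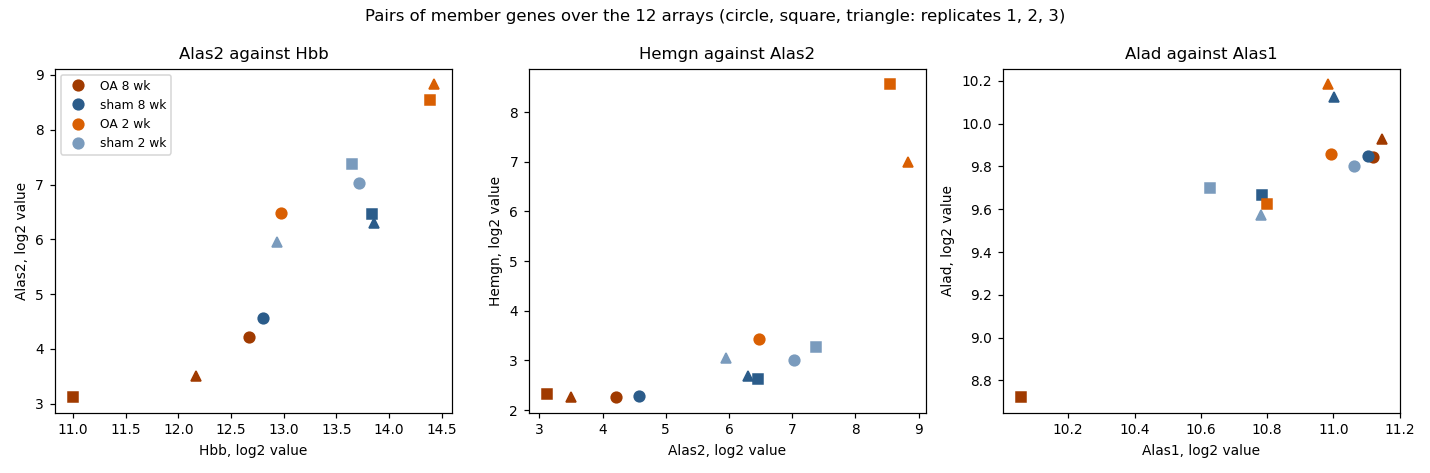
Log2 values of 2 genes in each of the 12 arrays (both axes), coloured by group, with circles, squares and triangles for replicates 1, 2 and 3. Alas2 follows Hbb, Hemgn is high only in the 2 arrays with the highest Alas2, and Alad against Alas1 has 1 array, OA at 8 weeks replicate 2, far below the rest.

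The genes whose values over the 12 arrays were most like those of Hbb, among 9179 genes, were Hba-a3 (Pearson's r 0.948), Irf7 (0.925), Tfb1m (0.905), Loxl1 (0.892) and Ighvl1 (0.892). Those most like Alas2 were Rsad2 (0.953), Coro1a (0.940), Jchain (0.932), Emb (0.925) and Ighvl1 (0.922). Irf7 and Rsad2 are interferon-response genes, Coro1a is an actin regulator of leukocytes, and Jchain and Ighvl1 belong to antibodies. These correlations describe 12 arrays that share the same groups and times.

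Markers of other cell types also differed between these groups, in part along with Hbb and Alas2 and in part not. Of 9 macrophage markers tested, 4 fell in OA against sham at 8 weeks, against 3.46% of all probe sets called. Within OA 7 fell at 8 weeks against 2 weeks, against 12.4% of all called lower, and 4 did so without OA at 8 weeks replicate 1. Their summed level was 13.3 to 13.8 in OA at 8 weeks, 13.4 to 15.4 in sham at 8 weeks, 14.2 to 14.9 in OA at 2 weeks and 13.8 to 15.1 in sham at 2 weeks. Replicates 2 and 3 of OA at 2 weeks, with the highest Alas2, had macrophage sums of 14.67 and 14.25, below replicates 1 and 2 of sham at 2 weeks.

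Of 3 granulocyte markers tested, 0 were called between OA and sham, against 3.46% of all probe sets at 8 weeks. Within OA 3 fell over time, against 12.4% of all called lower. The summed level of the 5 measured was 7.54 to 12.4 in OA at 8 weeks, 9.55 to 12.6 in sham at 8 weeks, 11.9 to 14.5 in OA at 2 weeks and 9.07 to 12.3 in sham at 2 weeks. Its highest values, 14.5 and 14.2, were in replicates 2 and 3 of OA at 2 weeks, the arrays with Hemgn and Car1 signal. Mmp8 and Cebpe never exceeded 4. The sum did not follow Hbb in every array, since replicate 1 of OA at 8 weeks had 12.44, above replicates 1 and 2 of sham at 8 weeks.

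Osteoclast markers summed to 13.6 to 14.5 in OA at 8 weeks and 15.8 to 16.2 in sham at 8 weeks. They summed to 15.57 to 15.73 in OA at 2 weeks and 15.77 to 16.22 in sham at 2 weeks, so the sum lay lower in OA at both times. At 2 weeks the sums were close, 0 of 5 markers were called and 1 of the 5 was higher in OA. All 5 tested fell in OA against sham at 8 weeks, or 4 without OA at 8 weeks replicate 1, against 3.46% of all probe sets called. Of 8 osteoblast and osteocyte markers tested, 3 fell in OA against sham at 8 weeks, beside the same 3.46%. Within OA 6 fell over time, or 5 without OA at 8 weeks replicate 1, against 12.4% of all called lower. Of 5 endothelial markers tested, 0 were called between OA and sham at 8 weeks and 3 fell within OA over time, beside the same 3.46% and 12.4%. Without OA at 8 weeks replicate 1, 1 of the 5 was called lower in OA against sham at 8 weeks. Proliferation markers summed to 9.86 to 11.3 in OA at 8 weeks, 11.1 to 12.7 in sham at 8 weeks, 12.5 to 13.2 in OA at 2 weeks and 11.5 to 12.7 in sham at 2 weeks. The part of these cells in the differences of Hbb, Alas2 and Hemgn was not tested.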

How the data were processed

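Total RNA of rat knee cartilage was hybridized with a biotin label to 1-colour Affymetrix arrays. The deposited values are on the log2 scale and were made by the authors with GCRMA, per the submitters' processing notes, with no version stated. They were used without further normalization. Of 31099 probe sets, 20832 have 1 gene symbol and 436 have several. The 57 control probe sets were left out, and 15934 with log2 above 4 in at least 3 of 12 arrays were kept (15108 were not).

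A linear model with 1 mean per group over all 12 arrays was fitted with limma 3.58.1 in R 4.3.3 (8 residual and 1.94 prior degrees of freedom). P-values were adjusted (Benjamini-Hochberg) across all 15934 kept probe sets and called under 0.05, and "rose" and "fell" mean called. The script was tested on simulated data. Probe sets under the filter were tested by exact permutation. Python 3.11.15, pandas 2.3.3, scipy 1.17.1 and matplotlib 3.10.9 made the tables and plots.

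The members and gene lists were chosen with earlier results of these data known. The members are all described; from each list at most the 4 lowest unadjusted p-values of a comparison were named, and the 5 genes most like Hbb and Alas2. Genes named outside this are given for their levels.

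Same-numbered OA and sham arrays tended to deviate together within a time (r of 0.239, 0.237 and 0.119 at 8 weeks, 0.333, 0.360 and 0.527 at 2 weeks). Unlike-numbered pairs ran from -0.266 to 0.142 at 8 weeks, where the ranges overlap, and from -0.381 to 0.069 at 2 weeks. Between the times, unlike-numbered sham arrays reached 0.640. The number was also fitted as a block. Alternatives were other filters, quantile normalization, equalized medians, array weights, only the arrays compared, and each array left out; for the lists, leaving out OA at 8 weeks replicate 1 was added after seeing the data.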

Additional observations from a re-analysis of the deposited data

How the results depend on the processing

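Between OA and sham at 8 weeks the count of called member probe sets was 0, and it became 2 with array weights and ran from 0 to 1 over fits without 1 array. Within OA over time it was 3 and ran from 1 to 3 without 1 array. Within sham over time it was 1, was 0 with a filter at log2 6, which no longer tests Slc4a1, and ran from 0 to 1 without 1 array. With the replicate number as a block within each time, 0 members were called between OA and sham, and Hbb and Alas2 had adjusted p-values of 0.163 and 0.147 at 8 weeks. That block, added after seeing the data, raised the calls over all probe sets at 8 weeks to 1037, against 552, and for the difference between effects to 67, against 22. Other alternatives moved the 8-week count to 1567 with array weights, 27 with only the 6 arrays compared, 362 without a filter, and 110 to 979 without 1 array. The count for the difference between effects was 130 with array weights, 39 with quantile normalization, 36 with equalized medians, 8 without a filter, and 7 to 80 without 1 array. At 2 weeks leaving out OA replicate 1 gave 1 call over all. Over time, no filter gave 9461 calls within OA, against 5430, and 6938 within sham, against 2979, where a filter at log2 6 gave 1523.

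Of 771 alternative values of member differences, 746 kept direction and call, 4 gained a call, 6 lost one and 15 turned direction, all of them uncalled. Between OA and sham at 8 weeks, fits without 1 array ran from -0.38 to 0.17 for Alas1, -0.47 to 0.27 for Fech, -0.60 to 0.0046 for Alad and -0.18 to 0.11 for Slc4a1, with the highest value of the first 3 without OA replicate 2 and of Slc4a1 without OA replicate 1. Slc4a1 was 0.0052 with array weights. The difference between effects ran from -0.48 to 0.066 for Alas1 and from -0.038 to 0.29 for Slc4a1. Within OA over time it ran from -0.34 to 0.21 for Alas1 and -0.65 to 0.090 for Fech. Within sham over time, Hbb ran from -0.18 to 0.41 and was -0.0006 with equalized medians. Within OA over time, Slc4a1 kept its difference of -0.65 but not its call with only the 6 arrays compared (adjusted p = 0.0623), and equalized medians gave Tfrc a call (-0.52, adjusted p = 0.0225). The cause of these changes was not tested beyond the arrays left out. With no filter, limma called Hemgn within OA over time (-4.04 ± 1.01, adjusted p = 0.0137) and not between OA and sham at 2 weeks (3.22 ± 1.01, adjusted p = 0.99993). The exact permutation p of its difference over time within OA was 0.1, the smallest that 3 arrays against 3 allow. Values under 4 are near the floor of the scale, which limits the sizes of differences of Alas2, Hemgn, Tmod1, Ireb2, Hfe and Flvcr2.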
